A study of Schizosaccharomyces pombe with 4 samples.

Results

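Of the 7022 annotated transcripts of fission yeast (Schizosaccharomyces pombe) in the deposited table, 1553 are noncoding RNAs with an SPNCRNA identifier. Of these, 439 overlap no protein-coding transcript on either strand and are described here as intergenic noncoding RNAs. SPNCRNA.659 and SPNCRNA.723 were left out by name, and the other 1112 overlap a coding transcript. The intergenic RNAs lie on chromosome I (197), chromosome II (166) and chromosome III (76), have a median annotated length of 605 bases (56 to 5123), and stand a median of 238 bases (0 to 36849) from the nearest protein-coding transcript. Each was placed in 1 of 4 orientation classes relative to that gene. In 186 the 5′ ends face each other (divergent), 136 lie on the same strand before the gene's start (tandem upstream), 62 lie on the same strand after its end (tandem downstream), and in 55 the 3′ ends face each other (convergent).

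Intergenic noncoding RNAs arise where RNA polymerase II starts in the space between genes, often from a promoter it shares with a gene on the other strand. Most are kept scarce by the nuclear exosome and its adaptors, which recognise and degrade noncoding and meiotic transcripts in growing cells. A few are abundant structured RNAs, such as the RNA of the signal recognition particle (srp7) and that of RNase MRP (mrp1). Dbr1 is the debranching enzyme that opens the 2′-5′ bond of excised intron lariats, and in yeasts some small nucleolar RNAs (snoRNAs) are cut out of introns after debranching.

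The study compared RNA from wild-type cells with RNA from dbr1Δ cells, which lack the debranching enzyme, to find lariats and changes in splicing. Both strains were h+ ade6-M216 ura4-D18 leu1-32. The control was ED668 and the mutant was a single strain of the Bioneer deletion collection, described by the study as slow growing in YES, the rich medium used for all cultures at 32 °C. Each strain has 2 libraries from separately grown cultures, made from rRNA-depleted RNA with strand kept. The slower growth of the mutant cannot be told apart from the absence of Dbr1 in this design.

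The libraries held 25169220 and 36062720 counts in wild-type cells, against 24205354 and 19780858 in dbr1Δ. The dbr1 gene itself had 1535 and 1799 counts in wild type against 207 and 164 in dbr1Δ, a log2 fold change of -2.77 ± 0.12 SE (edgeR quasi-likelihood test, adjusted p = 3.80e-07). The ura4 gene, deleted by ura4-D18, had 0, 0, 0 and 1 counts. The M cell gene mat1-Mc was at 0 in all 4 libraries, which checks nothing, since mating-type cassettes are repeated in the genome and reads from repeats were removed. The M-factor gene mfm1 had 3 and 7 counts in wild type against 9 and 16 in dbr1Δ, and the M cell receptor gene mam2 rose from 54 and 73 to 287 and 237. The other M-factor genes were at 24 and 34 against 28 and 19 (mfm2) and 57 and 52 against 61 and 37 (mfm3). The M-factor transporter gene mam1 had 956 and 1532 counts against 766 and 624 (log2 fold change -0.40), and the M cell agglutinin gene mam3 had 750 and 1043 against 649 and 445 (-0.30), so the M cell genes did not move together. The part of these in the results was not tested.

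The sequences of the RNAs on which the results turn are given first. They are 5 of the 6 largest increases, and SPNCRNA.242, the most abundant one that decreased. Each is read 5′ to 3′ on its own strand from the RefSeq assembly ASM294v3, as the first 300 bases or the whole RNA where it is shorter. Capitals mark TNAAAC, the core of the motif bound by Mmi1, the protein that sends meiotic RNAs to the exosome, on the printed strand or, as its reverse complement GTTTNA, on the other strand.
SPNCRNA.71, chrI:3001761-3001930, + strand: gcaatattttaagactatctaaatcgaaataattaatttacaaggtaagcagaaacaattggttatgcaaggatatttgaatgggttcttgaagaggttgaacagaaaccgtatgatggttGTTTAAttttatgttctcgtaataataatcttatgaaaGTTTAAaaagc
SPNCRNA.1530 (aal1), chrII:2580883-2581182, - strand: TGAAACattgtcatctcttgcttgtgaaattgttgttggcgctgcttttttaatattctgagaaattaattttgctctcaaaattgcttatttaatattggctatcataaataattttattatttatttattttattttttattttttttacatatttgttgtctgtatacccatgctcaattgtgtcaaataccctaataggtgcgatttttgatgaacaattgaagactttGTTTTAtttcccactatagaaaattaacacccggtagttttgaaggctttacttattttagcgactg
SPNCRNA.1165, chrIII:967404-967703, - strand: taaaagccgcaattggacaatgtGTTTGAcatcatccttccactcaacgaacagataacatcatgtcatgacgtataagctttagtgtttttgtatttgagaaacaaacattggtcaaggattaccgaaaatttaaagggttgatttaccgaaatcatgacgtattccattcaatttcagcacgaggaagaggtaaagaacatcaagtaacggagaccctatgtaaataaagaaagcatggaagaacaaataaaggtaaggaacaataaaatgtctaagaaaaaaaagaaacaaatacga
SPNCRNA.31, chrI:2975608-2975907, + strand: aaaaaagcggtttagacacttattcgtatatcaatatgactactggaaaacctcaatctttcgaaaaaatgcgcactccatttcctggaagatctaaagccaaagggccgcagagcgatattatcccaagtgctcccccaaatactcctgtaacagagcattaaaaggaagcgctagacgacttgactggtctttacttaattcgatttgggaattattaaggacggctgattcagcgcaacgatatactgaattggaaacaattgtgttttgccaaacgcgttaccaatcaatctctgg
SPNCRNA.1527, chrII:2552926-2553225, + strand: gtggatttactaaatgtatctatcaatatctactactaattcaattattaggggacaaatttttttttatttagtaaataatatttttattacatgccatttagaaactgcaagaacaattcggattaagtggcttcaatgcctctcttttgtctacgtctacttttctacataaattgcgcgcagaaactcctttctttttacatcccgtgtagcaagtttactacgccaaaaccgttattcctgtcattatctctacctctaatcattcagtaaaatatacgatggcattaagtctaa
SPNCRNA.242, chrI:4154360-4154659, + strand: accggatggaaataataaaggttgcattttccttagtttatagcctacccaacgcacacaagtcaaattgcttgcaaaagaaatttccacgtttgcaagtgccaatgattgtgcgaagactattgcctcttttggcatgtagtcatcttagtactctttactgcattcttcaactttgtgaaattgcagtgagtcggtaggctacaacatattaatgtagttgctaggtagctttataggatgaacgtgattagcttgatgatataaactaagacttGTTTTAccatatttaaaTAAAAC

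Sense matches of TNAAAC are in the printed part of SPNCRNA.1530 and SPNCRNA.242, with 1 each. Over the 365 intergenic RNAs with the same coordinates in RefSeq, the motif occurred 2.16 times per kilobase on the sense strand and 2.26 times on the other strand. Over the 50 increased ones among these it occurred 2.47 and 2.21 times, and over the 10 decreased ones 1.91 and 2.01 times. Over the 152 tested but not called it occurred 1.85 and 2.14 times, and over the 153 not tested 2.60 and 2.54 times. For the 1044 noncoding RNAs overlapping a coding transcript the values were 1.97 and 1.99. The median GC content was 32.2% for intergenic RNAs and 35.6% for the overlapping ones. In the window from 250 bases before to 50 bases after the annotated start, read on both strands, TATAAA was present for 47.7% of intergenic RNAs, 54.0% of the increased ones and 46.0% of all 1982 matched transcripts. The window of TGACGT, the core of the site bound by the stress factor Atf1, gave 9.04%, 8.0% and 7.06%. The 1982 matched transcripts include the 365 intergenic RNAs and the 1044 overlapping ones, and only 303 are protein-coding. A match is a run of letters and not a shown binding site.

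Of the 439 intergenic RNAs, 264 reached 10 counts in 2 or more libraries and were tested. The other 175 include 63 with 0 counts in all 4 libraries and reached at most 40 counts over all 4. Of 31 annotated as centromeric, 26 were at 0. The authors removed reads that match several loci, so absence of RNA and repeated sequence cannot be told apart there. The tested RNAs were scarce, with a median length-scaled level (RPKM, from TMM-scaled CPM) of 2.81 and 2.78 in wild type and 3.61 and 3.86 in dbr1Δ. Together all 439 took 2.89% and 3.28% of the counts in wild-type cells, against 3.78% and 4.20% in dbr1Δ. Of these counts srp7 alone made up 59.5% and 63.3% in wild type and 76.6% and 76.8% in dbr1Δ. The joint share of the other intergenic RNAs therefore did not rise.

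In dbr1Δ, 56 of the 264 tested intergenic RNAs (21.2%) increased and 10 (3.79%) decreased, where a call needed more than a 2-fold change besides an adjusted p under 0.05 in the edgeR fit. Over all 6401 tested transcripts 6.69% increased and 2.81% decreased. Without the fold cutoff, 83 intergenic RNAs were higher and 42 lower, where 17.8% of all transcripts were higher and 42.6% lower. The median log2 fold change was 0.27 for the intergenic RNAs, -0.18 for all tested transcripts, -0.24 for nuclear protein-coding transcripts and 0.30 for noncoding RNAs that overlap a coding transcript. Of the overlapping noncoding RNAs 197 of 984 increased, and of the coding transcripts 138 of 5000. The difference between these classes was not tested.

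In all 66 called RNAs the libraries of the strains did not overlap. This was common also without a call. Of the 264 tested intergenic RNAs, 122 had both dbr1Δ libraries higher and 80 had both lower. Of all 6401 tested transcripts, 1736 had both higher and 3527 had both lower. Annotations overlap, so the 56 increases came from 51 separate same-strand loci and the 10 decreases from 10, of 229 tested. The number of decreases depended on the scaling. With scaling factors from transcripts alone, without introns, 67 increased and 4 decreased, and 80.2% of RNAs at an adjusted p under 0.05 were higher against 66.4% above. Without dbr1Δ replicate 1 only 4 decreased, and without dbr1Δ replicate 2 there were 41 increases and 15 decreases.

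**Figure D1:**
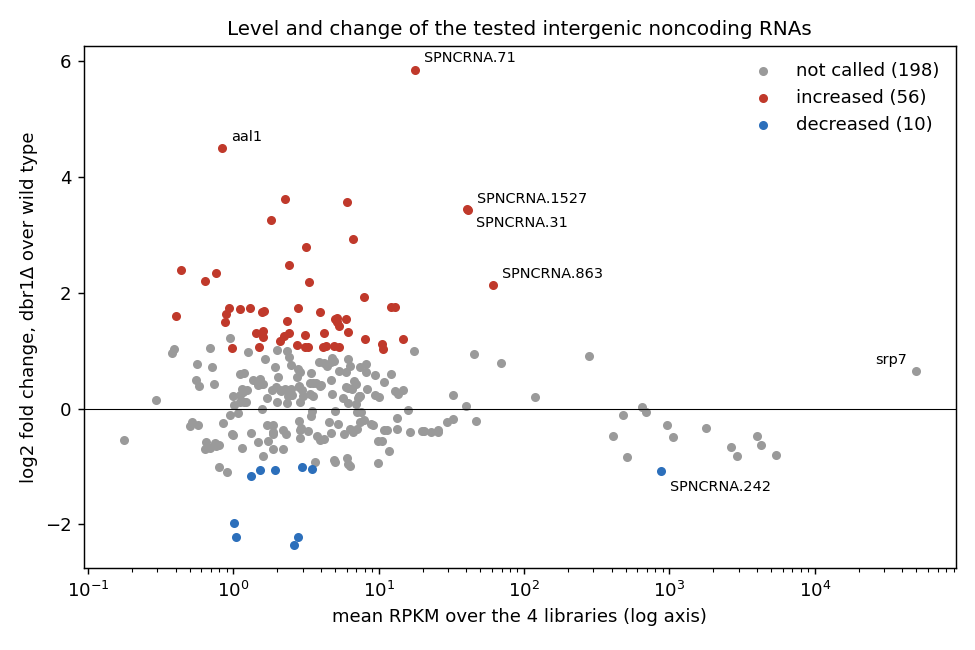
Mean RPKM over the 4 libraries (horizontal, log axis) against the log2 fold change of dbr1Δ over wild type for the 264 tested intergenic noncoding RNAs, 1 point each, with increased RNAs in red, decreased in blue and the others in grey. Most increases lie at low levels, and srp7 stands far to the right with a log2 fold change of 0.64.

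The largest increase was that of SPNCRNA.71, whose RefSeq product is a small polyadenylated RNA of meiosis, stationary phase and quiescence. It stood at 0.475 and 0.664 RPKM in wild type and 39.6 and 30.7 RPKM in dbr1Δ, a log2 fold change of 5.85 ± 0.34 SE. It lies 73 bases from the divergent gene spk1, the MAP kinase of pheromone signalling, which had a log2 fold change of -0.29 (adjusted p = 0.088, edgeR). On the opposite strand it overlaps SPNCRNA.72 and SPNCRNA.872, which went the other way. SPNCRNA.72 had 2367 and 2676 counts in wild-type cells, against 1237 and 910 in dbr1Δ, a log2 fold change of -0.84 (adjusted p = 0.00036, edgeR). With so many counts on that strand and 2 and 4 on the other, the reads were counted by strand.

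The RNA aal1 (SPNCRNA.1530, 783 bases) rose next most in the fit. It had 1 and 2 counts in wild-type cells, against 21 and 33 in dbr1Δ. The ratio of summed counts, corrected for library size, was 24.2 with a 95% counting interval of 7.84 to 121, which covers counting error only. Its neighbour on the same strand is ckb2, a regulatory subunit of casein kinase 2, at -0.20 (adjusted p = 0.035). The RNA on the other strand of the same stretch, SPNCRNA.401, had 3 and 8 counts in wild-type cells, against 18 and 20 in dbr1Δ, and increased too (log2 fold change 2.20, adjusted p = 0.0044, edgeR).

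Before gas2, a β-1,3-glucanosyltransferase gene of the cell wall, SPNCRNA.1527 had 141 and 221 counts in wild-type cells, against 1558 and 1311 in dbr1Δ. Its libraries stood at 6.63 and 7.27 RPKM against 72.2 and 77.4 RPKM. The log2 fold change was 3.42 ± 0.10 SE (adjusted p = 2.37e-08, edgeR), the smallest adjusted p among the 10 largest increases. The gene itself was at 0.48 (adjusted p = 0.0033). Within libraries the RNA rose over its gene by 2.95 on the log2 scale (standard error 0.12, limma, adjusted p = 3.05e-05).

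A similar position, 427 bases before the start of gsf2, a flocculin gene, was held by SPNCRNA.1165. It had 5 and 21 counts in wild-type cells, against 114 and 121 in dbr1Δ (log2 fold change 3.62, standard error 0.37). The wild-type libraries differed from each other, but both lay far below both mutant libraries. The gene gsf2 was at 0.42, and SPNCRNA.1164, the long RNA on the opposite strand, at 0.75 with 250 and 317 against 376 and 335 counts.

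Before mfc1, which encodes a copper transporter used during sporulation, the RNA and the gene rose together. SPNCRNA.31 had 85 and 76 counts in wild-type cells, against 683 and 633 in dbr1Δ (log2 fold change 3.44, standard error 0.20). It lies inside the longer SPNCRNA.867 on the same strand, which shares its reads and went from 282 and 368 to 977 and 852 counts. The mfc1 gene had 79 and 114 counts in wild-type cells, against 275 and 186 in dbr1Δ (log2 fold change 1.67, adjusted p = 5.29e-05, edgeR). SPNCRNA.31 rose over mfc1 by 1.78 on the log2 scale (limma, adjusted p = 0.0018), and SPNCRNA.867 by 0.25 (adjusted p = 0.28).

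The same held for SPNCRNA.1255, which converges on wtf20, a gene of the wtf meiotic drive family. The RNA had 13 and 11 counts in wild-type cells, against 138 and 79 in dbr1Δ (log2 fold change 3.56), and wtf20 had 11 and 26 against 45 and 44 (1.71, adjusted p = 0.0022, edgeR). The wtf genes are near-identical copies and reads matching several loci were removed, so the counts of wtf20 are uncertain. SPNCRNA.1172, annotated as centromeric and 4153 bases from the checkpoint kinase gene chk1, had 5 and 6 counts in wild-type cells, against 50 and 31 in dbr1Δ (log2 fold change 3.26). SPNCRNA.1499, divergent from opi10, a nuclear import carrier of the Hikeshi family, had 16 and 34 against 124 and 152 counts (2.92), with opi10 at 0.81.

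The last of the 10 largest increases were SPNCRNA.745 and SPNCRNA.421. SPNCRNA.745, 1232 bases before the cell surface gene ecm33, had 12 and 17 counts in wild-type cells, against 81 and 69 in dbr1Δ (log2 fold change 2.79). SPNCRNA.421, divergent from cbp1, a gene for a centromere-binding CENP-B homologue, had 24 and 26 against 121 and 89 (2.47). Neither neighbour rose, with ecm33 at -0.17 and cbp1 at -0.33. Among the other increases SPNCRNA.863 had the highest mean RPKM, with 905 and 1336 counts in wild-type cells, against 4064 and 3246 in dbr1Δ, and was chosen after its values were seen.

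**Figure D2:**
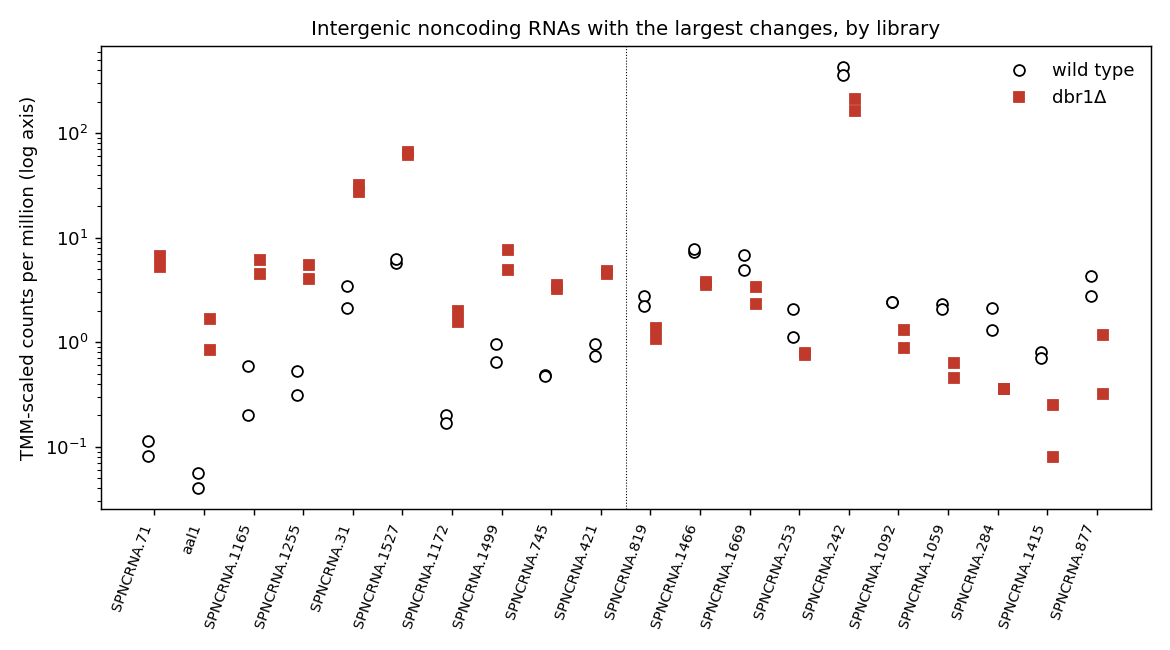
TMM-scaled CPM (log axis) of the 10 intergenic noncoding RNAs with the largest increases (left of the dotted line) and the 10 that decreased (right), with open circles for the 2 wild-type and red squares for the 2 dbr1Δ libraries. The RNAs were chosen among those whose libraries do not overlap between the strains. SPNCRNA.71 stood at 0.0808 and 0.113 in wild type against 6.73 and 5.22 in dbr1Δ.

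The 10 decreases were smaller and fewer. SPNCRNA.242, 335 bases long and before dap1, a cytochrome P450 regulator, was by far the most abundant. It had 10649 and 12807 counts in wild-type cells, against 4088 and 4191 in dbr1Δ, a log2 fold change of -1.08 ± 0.14 SE (adjusted p = 0.00025, edgeR). The gene dap1 was at 0.22 (adjusted p = 0.19), and within libraries the RNA fell by 1.32 relative to it (limma, adjusted p = 0.0033). With the scaling from transcripts the fold change of SPNCRNA.242 was -0.90, under the cutoff.

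Before pyp2, the phosphatase of the stress MAP kinase, SPNCRNA.1059 fell from 58 and 73 counts to 16 and 9 (log2 fold change -1.97, adjusted p = 0.00064, edgeR), while pyp2 was at -0.20 (adjusted p = 0.24). SPNCRNA.877 had the largest fall, -2.35, from 69 and 152 counts to 8 and 23. SPNCRNA.1415 had 20 and 25 counts in wild-type cells, against 2 and 5 in dbr1Δ (-2.22), and was no longer called without dbr1Δ replicate 1 (-1.50, adjusted p = 0.069).

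In a pair of cases the neighbouring gene fell as much. SPNCRNA.284 went from 53 and 46 counts to 9 and 7 (-2.22), and pfl9, a flocculin-like gene after it, from 136 and 125 to 25 and 25 (-1.99). SPNCRNA.1092, 113 bases after the end of the proline permease gene put4, went from 60 and 85 to 22 and 26 (-1.16), with put4 at -1.20. The ratio of RNA to gene changed by -0.20 and 0.06 (limma, adjusted p = 0.59 and 0.88). The other 4 decreases, SPNCRNA.253, SPNCRNA.1669, SPNCRNA.1466 and SPNCRNA.819, had log2 fold changes between -1.07 and the cutoff and, like SPNCRNA.242 and SPNCRNA.1092, were under the cutoff in all 3 fits scaled from transcripts. Each of these 6 also lost its call without single libraries. Without dbr1Δ replicate 1, SPNCRNA.1092 was at -0.82, SPNCRNA.242 at -0.85, SPNCRNA.1669 at -0.76 and SPNCRNA.1466 at -0.96. Without wild-type replicate 1, SPNCRNA.242 was at -0.95, SPNCRNA.1669 at -0.81 and SPNCRNA.819 at -0.85. SPNCRNA.1466 was at -0.99 without wild-type replicate 2, and SPNCRNA.819 at -0.82 without dbr1Δ replicate 2. SPNCRNA.253 lost its call without wild-type replicate 2 (-0.52, adjusted p = 0.27), dbr1Δ replicate 1 (adjusted p = 0.13) or dbr1Δ replicate 2 (adjusted p = 0.11), and by DESeq2 (adjusted p = 0.099).

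How the RNAs moved relative to their neighbours was tested within libraries, by the log2 ratio of each RNA to its nearest tested protein-coding gene. Of the 264 RNAs, 84 rose relative to the gene and 29 fell, with a median change of 0.39. Over 6363 transcripts with such a partner 28.8% rose and 21.8% fell, with a median of 0.07, so the share that rose (31.8%) was near the background and the share that fell below it. Of the 56 increased RNAs, which were called for their rise, 1 fell behind its gene. It was SPNCRNA.940, divergent from SPAC4H3.08, a 3-hydroxyacyl-CoA dehydrogenase gene that rose by 3.32.

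In 7 of the 56 cases the nearest coding gene was itself increased and in 49 it was not called. Without the fold cutoff it was higher for 20 and lower for 25. Of 5000 tested nuclear protein-coding transcripts 138 (2.76%) increased, and without the fold cutoff 651 were higher and 2505 lower. Across the 262 pairs in which both were tested, the log2 fold changes of RNA and gene had a Pearson's r of 0.22 and a Spearman's rho of 0.17. The pairs share their 4 libraries and several genes, and no test was made.

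**Figure D3:**
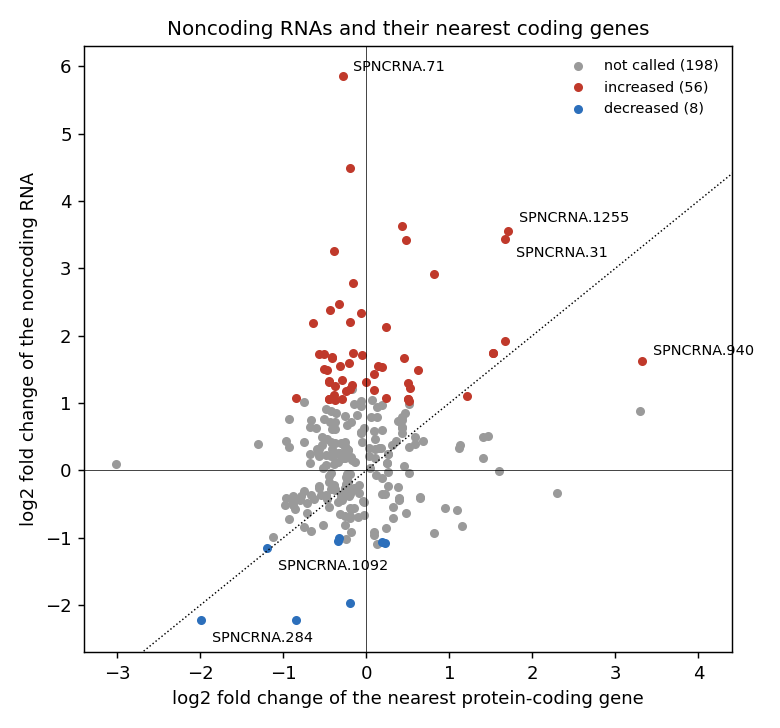
Log2 fold change (dbr1Δ over wild type) of the nearest protein-coding gene (horizontal) against that of the intergenic noncoding RNA (vertical) for 262 pairs, coloured by the call for the RNA, with equal change on the dotted line. Most red points lie above the line with a gene near 0, and SPNCRNA.940 lies below it.

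By orientation, 22 of 77 tested tandem upstream RNAs increased and 4 decreased (median log2 fold change 0.34). Of 125 divergent RNAs 23 increased and 3 decreased (median 0.24), and of 39 convergent RNAs 8 increased and 0 decreased (0.32). At an unadjusted p under 0.05, 6 convergent RNAs were lower in the edgeR fit, and DESeq2 called 1 decreased. Of 23 tandem downstream RNAs 3 increased and 3 decreased (median -0.22). The neighbouring genes had medians of -0.20, -0.22, -0.31 and -0.24 in the same order, so only the tandem downstream RNAs had a median like that of their genes. The difference between classes was not tested. The called RNA with the largest change was SPNCRNA.1530 among tandem upstream, SPNCRNA.71 among divergent, SPNCRNA.1255 among convergent and SPNCRNA.877 among tandem downstream RNAs.

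**Figure D4:**
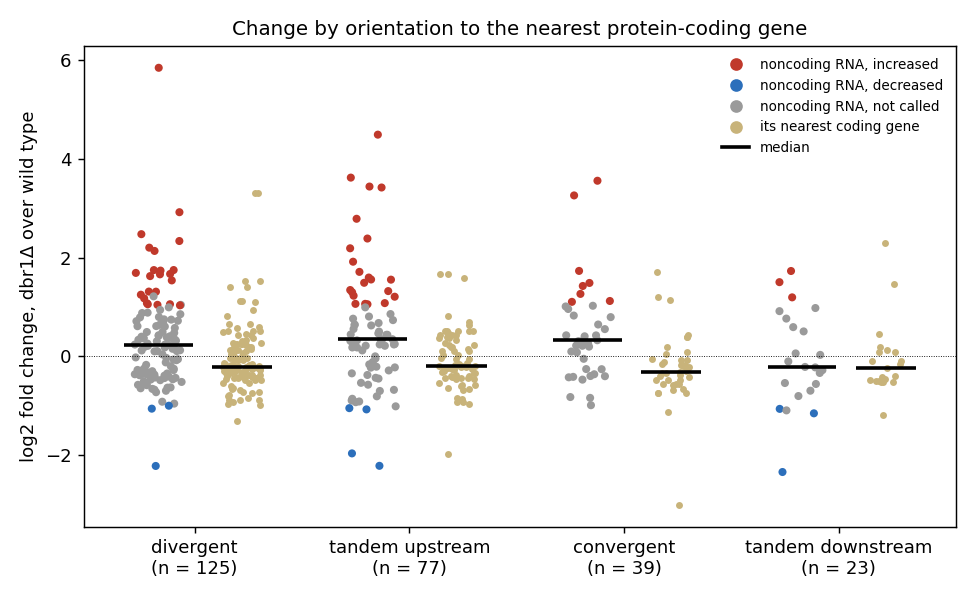
Log2 fold change (dbr1Δ over wild type) of tested intergenic noncoding RNAs in each orientation class, with increased RNAs in red, decreased in blue and others in grey, beside the nearest protein-coding genes in tan and black bars for medians. The RNA medians are 0.24, 0.34, 0.32 and -0.22 from left to right, and those of the genes lie between -0.31 and -0.20.

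The RNAs were also counted by distance, level and chromosome. Of 54 RNAs at least 500 bases from a coding transcript 16 increased (median log2 fold change 0.55), of 126 at 100 to under 500 bases 29 (0.24), and of 84 closer ones 11 (0.18). By tercile of mean RPKM, 19, 24 and 13 of 88 increased, from the lowest to the highest, with medians of 0.32, 0.40 and 0.03. By chromosome, 22 of 124 increased on I, 23 of 99 on II and 11 of 41 on III (medians 0.18, 0.32 and 0.62). These are counts with no test between them.

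Some increases lay side by side. In the space between pcs2, a phytochelatin synthetase gene, and hsr1, a zinc finger transcription factor gene, 5 of 6 intergenic RNAs increased, on both strands. They were SPNCRNA.779 (154 and 156 counts against 271 and 263), SPNCRNA.780 (32 and 42 against 77 and 71), SPNCRNA.781 (91 and 132 against 238 and 172), SPNCRNA.782 (56 and 50 against 83 and 83) and SPNCRNA.784 (13 and 15 against 25 and 19). Their log2 fold changes were 1.05 to 1.42. SPNCRNA.778 was at 0.59 (adjusted p = 0.13, edgeR), hsr1 at 0.50 and pcs2 at 0.09. SPNCRNA.783, which overlaps the start of hsr1 on the other strand, fell from 88 and 98 counts to 37 and 19 (-1.33). This stretch was chosen after its values were seen.

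**Figure D5:**
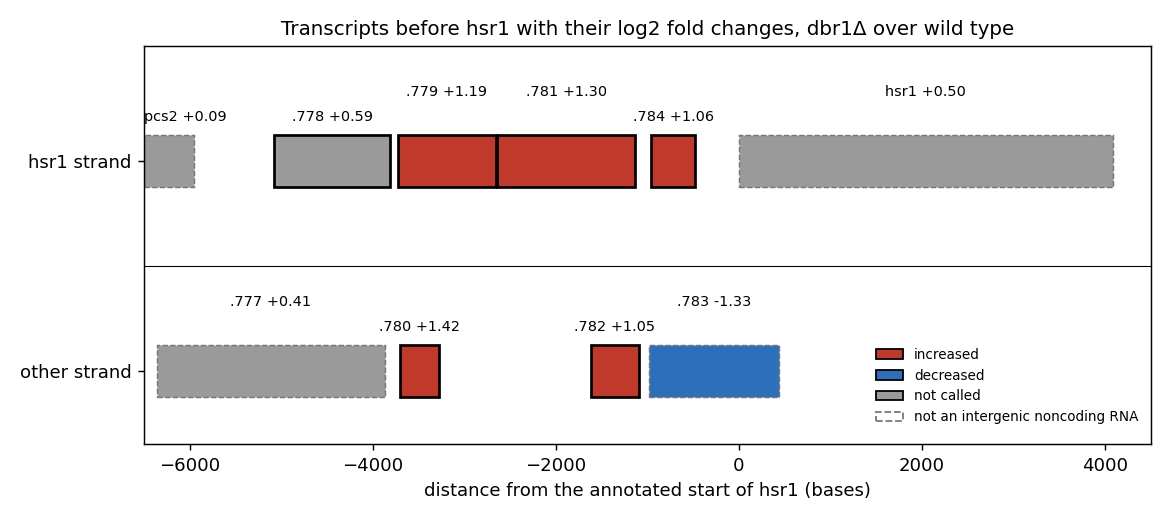
Transcripts between pcs2 and hsr1 by distance from the annotated start of hsr1 in bases, with the hsr1 strand above and the other strand below. Labels give log2 fold changes of dbr1Δ over wild type, dashed outlines mark transcripts that are not intergenic noncoding RNAs, and 5 adjoining RNAs are increased while SPNCRNA.783 is decreased.

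The abundant structured RNAs changed by less than 2-fold. The 7SL RNA srp7 had 433286 and 748085 counts in wild-type cells, against 700850 and 639195 in dbr1Δ, a log2 fold change of 0.64 ± 0.11 SE (adjusted p = 0.0016, edgeR). The RNase MRP RNA mrp1 was lower in both of its annotations, by -0.66 for SPNCRNA.82 and -0.47 for SPNCRNA.727, which also overlaps snoZ16. Both scalings kept these directions. The other RNAs of highest wild-type level were SPNCRNA.507 (-0.81) and SPNCRNA.808 (-0.83), which overlap each other, and SPNCRNA.510 (-0.63).

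Of the 47 intergenic RNAs with a gene symbol, 34 were tested. Over all 264 tested intergenic RNAs 21.2% increased and 3.79% decreased, and over all tested transcripts 6.69% and 2.81%. Of the 34 with a symbol, 5 were called, all increased. Besides aal1 these were meu19 (36 and 20 counts against 75 and 67, log2 fold change 1.73), prl66 in both of its annotations (1.69 and 1.67) and prl21 (1.05). The prl calls were weak. DESeq2 gave an adjusted p of 0.072 for the SPNCRNA.104 annotation of prl66 and 0.087 for prl21, and without dbr1Δ replicate 2 edgeR gave 0.15 and 0.052, with 0.058 for the SPNCRNA.66 annotation of prl66. Without wild-type replicate 1 the prl66 annotations SPNCRNA.104 and SPNCRNA.66 had adjusted p = 0.11 and 0.051, and without wild-type replicate 2 prl21 was at 0.90 (adjusted p = 0.080, edgeR). The meiotic RNA sme2, which captures Mmi1 at its own gene during meiosis, had 98 and 147 counts in wild-type cells, against 165 and 143 in dbr1Δ (0.76, adjusted p = 0.0036, edgeR). The RNA omt3, which also forms meiotic foci, was at -0.81 and -0.68. The lncRNA nam3 was higher in both annotations, at 0.94 and 0.79, and ncRNA.1343 lower, at -0.93. The remaining prl RNAs had log2 fold changes of -0.51 to 0.88.

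The 6 RNAs annotated as snoRNAs or their precursors had 0 calls by edgeR and 0 by DESeq2, with 2 lower at an unadjusted p under 0.05. Their log2 fold changes were -0.47 to 0.19, but 1 of them holds an intron that fell. SPNCRNA.445, which has the RefSeq symbol snoR61, has an intron of 336 bases (chrII:3874462-3874797, - strand). The exons had 9001 and 9978 counts in wild-type cells, against 6257 and 6919 in dbr1Δ, a log2 fold change of -0.11 (adjusted p = 0.61, edgeR). The intron had 81011 and 136654 counts in wild-type cells, against 19300 and 15732 in dbr1Δ, a log2 fold change of -2.19 ± 0.10 SE (adjusted p = 4.14e-07). That is 4.55-fold lower, and the libraries of the strains were far apart.

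Of 3117 tested introns 53% increased and 1.32% (41) decreased in dbr1Δ, so the counts in this intron went against the common direction. The annotation does not say whether the mature snoRNA lies in this intron. Reads of the intron and of a snoRNA within it therefore cannot be told apart. By wild-type RPKM the SPNCRNA.445 intron ranked first of the 41. Next came the introns of fta3 (-1.11), pfd1 (-1.74) and spt20 (-2.27), which are the 3 of the 41 that overlap an annotated snoRNA, snoR47, snoZ15 and snoU24. The first and last 60 bases of the SPNCRNA.445 intron are shown for its splice sites, with the first 6 and the last 2 bases in capitals.
SPNCRNA.445 intron, chrII:3874738-3874797, - strand: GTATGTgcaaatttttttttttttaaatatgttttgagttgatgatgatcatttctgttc
SPNCRNA.445 intron, chrII:3874462-3874521, - strand: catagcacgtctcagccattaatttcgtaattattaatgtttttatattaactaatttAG

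Splicing efficiency, the ratio of junction reads to reads across the 5′ exon-intron border, could be tested for 2 of the 3 annotated introns of intergenic RNAs. For SPNCRNA.445 there were 16 and 39 junction reads and 6 and 4 border reads in wild type, and 12 and 10 against 3 and 4 in dbr1Δ (Cochran-Mantel-Haenszel test, adjusted p = 0.90). For an intron of SPNCRNA.159 there were 1 and 1 junction reads against 5 and 3 border reads in wild type, and 2 and 4 against 2 and 5 in dbr1Δ (adjusted p = 0.81). The other intron of SPNCRNA.159 had 0 junction reads. At this depth no difference in splicing efficiency was detectable. In level, the first of these SPNCRNA.159 introns increased from 6 and 9 counts to 18 and 25, with the border reads above included. Its log2 fold change was 1.94 ± 0.45 SE (adjusted p = 0.0065, edgeR), the common direction of introns and the opposite of that in SPNCRNA.445. The other was at -0.19 (adjusted p = 0.60), and the SPNCRNA.159 transcript at -0.38 (adjusted p = 0.027).

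Genes that act on such RNAs were compared by lists. Of the 29 tested genes of nuclear RNA surveillance and termination, 0 were higher and 26 lower by edgeR. At an unadjusted p under 0.05 these numbers were 0 and 26, and by DESeq2 0 and 25. The median log2 fold change was -0.41, against -0.18 for all transcripts and -0.24 for nuclear protein-coding ones. Of 5000 nuclear protein-coding transcripts 651 were higher and 2505 lower. The exosome subunit gene rrp41 was at -1.24 and the nuclear exonuclease gene rrp6 at -0.80. Of the 23 genes of RNAi and chromatin silencing 1 was higher and 13 lower (median -0.23), beside 17.8% and 42.6% of all transcripts and a median of -0.24 for coding ones, with the methyltransferase gene set2 at -0.55. With the scaling from transcripts 15 of the surveillance genes and 5 of the silencing genes were lower.

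Of 15 core stress genes 11 were higher and 0 lower (median 0.54), led by the chaperone gene hsp16 (2.32), the ATPase gene cta3 (2.16) and hsp9 (1.79). At an unadjusted p under 0.05, 0 stress genes were lower, and DESeq2 also gave 0. Of 12 meiotic regulators and Mmi1 targets 2 were higher and 5 lower, shares like those of all transcripts (17.8% and 42.6%), with mei2 at -1.17 and ste11 at -0.74. Of 5 rows of stable structured RNAs 4 were lower, among them both annotations of mrp1, which overlap and share reads. The RNase P RNA rrk1 was at -0.91 and the telomerase RNA ter1 at -0.69. Of 6 tested M cell genes 2 were higher (mam2 and sxa2) and 2 lower (mam1 and mam3), and with the scaling from transcripts neither mam1 nor mam3 passed the test. Of 3 tested P cell genes 0 were higher and 1 lower, the M-factor receptor gene map3 (-0.80), by edgeR (also at an unadjusted p under 0.05 and by DESeq2). How these changes bear on the intergenic RNAs was not tested.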

How the data were processed

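The deposited table holds, for 7022 transcripts and 5361 introns, raw read counts and reads across exon-intron borders per library. The authors aligned 49-base reads with Bowtie to build EF1, allowing 3 mismatches and removing reads that matched several loci, and computed the deposited log2 RPKM and log2 splicing efficiency. The deposited log2 RPKM values were not used, and junction reads were recovered from the log2 splicing efficiency and the border counts. The count of an intron, in the fits and in the library totals, was its read count plus its border reads. Intergenic RNAs, their nearest genes and orientation were taken from the coordinates in the table. Of 439, 392 matched a RefSeq (ASM294v3) locus tag, which gave symbols and products, and 365 with the same coordinates gave sequences. The members and gene lists were chosen with earlier results of these data known. The lists first held map3 among M cell and mam3 among P cell genes, and both were exchanged after the values were seen. The exchange left the numbers of higher and lower genes as they were in the main edgeR fit and by DESeq2. With the scaling from transcripts it took the lower M cell genes from 1 to 0 and the lower P cell genes from 0 to 1.

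Loci that reached 10 counts in 2 or more libraries were fitted jointly (transcripts and introns, TMM scaling) with the edgeR 4.0.16 quasi-likelihood test in R 4.3.3, with Benjamini-Hochberg adjustment over all 9518 tested loci. A call needed more than a 2-fold change besides an adjusted p under 0.05. RNAs were set against their nearest tested coding gene by limma 3.58.1 on log2 ratios with a pseudocount of 0.5 within each library, adjusted over 6363 pairs. Splicing efficiency was tested by the Cochran-Mantel-Haenszel test, with the library numbers as strata. CPM are TMM-scaled, and RPKM divide them by annotated length. With 2 libraries a strain, p-values rest on a spread pooled across loci, since an exact permutation of 1 value cannot go below 0.333 (two-sided). On simulated counts edgeR recovered 99.0% of 4-fold and 85.0% of 2.5-fold changes. The changed loci were drawn from transcripts and introns above a minimum mean count, with the same spread set for every locus. Recovery for intergenic RNAs alone, many of them scarce, was not measured.

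Named RNAs were those with a symbol, the 10 largest increases and decreases with both mutant libraries beyond both wild-type libraries, the 5 of highest wild-type level, the largest called change of each orientation class, called RNAs with introns, the nearest genes of these, and up to 4 genes of each list. Others are stated as chosen after their values were seen. Alternatives were DESeq2 1.42.0, RLE or no scaling factors, TMM from transcripts or coding transcripts, a fit without introns, other count filters, a replicate block, each library left out, another pseudocount, the nearest transcript of any class, a gap of 200 bases, and Fisher's exact test for introns. The deviations of same-numbered libraries from their strain means had a correlation of -0.0275. This value cannot show whether cultures were grown in pairs, and the main fit used no pairing.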

Additional observations from a re-analysis of the deposited data

How the results depend on the processing

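The direction of the median and the excess of increases over decreases held in all alternatives. With TMM from transcripts, TMM from nuclear protein-coding transcripts or transcripts fitted without introns, 4 intergenic RNAs decreased in each (10 in the report), 25, 22 and 25 were lower at an adjusted p under 0.05 (42), and the median log2 fold change was 0.44, 0.50 and 0.44 (0.27). The median of all transcripts was then -0.01, 0.05 and -0.01 (-0.18). With a mean of at least 50 counts, 155 RNAs were tested, 33 increased, 1 decreased, 23 were lower, and 53 rose relative to their nearest gene. With no coding transcript within 200 bases, 123 RNAs were tested, 37 increased and 6 decreased. The smaller numbers of these last alternatives go with fewer RNAs tested.

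Leaving out 1 library gave 41 to 57 increases, 4 to 15 decreases, 61 to 75 higher, 25 to 34 lower, a median of 0.18 to 0.34, 63 to 79 RNAs that rose relative to their gene and 16 to 28 that fell. The lone sample of a strain was assumed to vary like the other strain. With the replicate block 57 increased and 9 decreased, and 56 of the increases were the same RNAs. DESeq2 called 45 of the 56 increased. Of 694 alternatives for named RNAs, 614 kept the call, 46 lost it and 15 gained it. Small changes reversed, in RNAs that were not called. With TMM from transcripts, from coding transcripts and without introns, SPNCRNA.1493 was 0.048, 0.10 and 0.049, SPNCRNA.445 was 0.068, 0.13 and 0.068, and SPNCRNA.51 was 0.17, 0.22 and 0.17. SPNCRNA.445 was 0.0071 with a mean of at least 50 counts, and SPNCRNA.51 was 0.049 with no scaling factors and 0.017 with the replicate block. With a library left out, SPNCRNA.50 was -0.094 to 0.32, SPNCRNA.78 was -0.00096 to 0.16, SPNCRNA.445 was -0.34 to 0.17 and SPNCRNA.51 was -0.11 to 0.15. The cause was not tested.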
